A study of Mus musculus with 12 samples.

Results

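The large subunit of the cytosolic ribosome is built on ribosomal RNA by the proteins of the Rpl and Rplp genes. These genes were taken by name from the footprint table: symbols made of Rpl, a number and at most 1 letter and 1 further digit, together with Rplp0, Rplp1 and Rplp2, without pseudogenes. The rule gave 50 of the 10080 genes in the footprint table, and all 50 were also among the 41255 genes of the matching mRNA table. The tissue-restricted copies Rpl3l and Rpl10l and the paralogs Rpl7l1 and Rpl22l1 are among the 50, whereas Rpl36al, which also encodes a large subunit protein, has a name of another form.

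The cells were Ba/F3, a mouse lymphoid line that depends on interleukin 3. They carried human RPL10, either WT or with the R98S mutation found in T-cell leukemia, on a retroviral vector, and the mouse Rpl10 was knocked down in both genotypes by an shRNA. Each genotype was represented by 3 lines grown from single-cell colonies, R98S clones 11, 13 and 35 and WT clones 28, 29 and 36, so that differences between clones are part of the spread within a genotype. Each clone gave 1 ribosome footprinting library (RPF, the mRNA fragments covered by ribosomes) and 1 mRNA library, after 5 min in cycloheximide at 100 μg/ml, which makes 12 libraries. The values are normalized counts, that is, gene counts divided by a size factor for the library.

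As background, the large subunit holds the peptidyl transferase centre, where peptide bonds form, the tunnel through which the new protein leaves, and a stalk of acidic proteins that recruits the translation factors. Rpl10, the protein mutated here, joins among the last, in the cytoplasm, close to the peptidyl transferase centre. The mRNAs of most ribosomal proteins are abundant, and many begin with a run of pyrimidines, the 5′ terminal oligopyrimidine or TOP motif, through which their translation is controlled together.

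Because that motif is the sequence feature these mRNAs are best known for, the bases around an annotated start of 10 of the genes are printed here 5′ to 3′ from RefSeq (GRCm38.p6), from 10 bases before the start to 15 after it. Capitals mark the longest run of at least 8 bases that are each C or T. The first 8 genes hold such a run, 6 of them with a positive and 2 (Rpl14 and Rpl34) with a negative footprint difference between genotypes, and the last 2, Rpl10 and Rpl4, are shown as genes without one. Where RefSeq gave several starts, the one with a run is shown, which was 1 of 3 for Rpl35a and 1 of 2 for Rpl34.
Rpl27a (chr7:109519185-109519209, plus strand): cgtgagCTCCTCCCTTTTCCCTTTC
Rplp2 (chr7:141447641-141447665, plus strand): cagcgTCTTCCTTTCgccgccggac
Rpl35 (chr2:39005117-39005141, minus strand): ccgCCCTTTCCTCTTTCTCTCgaac
Rpl15 (chr14:18270972-18270996, minus strand): agaaagCCTTCTTCCTTTCCTCTgg
Rpl35a (chr16:33056472-33056496, plus strand): gcttgCCTTCCTCTTTCCgccatct
Rpl22l1 (chr3:28805498-28805522, plus strand): gcgcaagcccgTTCTCTTCCCacgg
Rpl14 (chr9:120571507-120571531, plus strand): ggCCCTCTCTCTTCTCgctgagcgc
Rpl34 (chr3:130730323-130730347, minus strand): CTTTTCCTCTTCCggggacggtgct
Rpl10 (chrX:74270806-74270830, plus strand): tacagtggaagataggccgcctata
Rpl4 (chr9:64173377-64173401, plus strand): tttcctgtgggagcagccgggtaga

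A RefSeq start was given for 38 of the 50 genes. Read in the direction of transcription, as printed above, 15 of them (39.5%) held a run of 8 or more pyrimidines in this window, at any start and anywhere in it. The share was 11.0% (2986 of 27025) over all genes with a start in the table, 33.3% (8 of 24) for small subunit genes and 9.76% (4 of 41) for genes of the mitochondrial large subunit. The run in Rpl27a was the longest of those printed. Exactly at an annotated start, a C followed by 4 pyrimidines was found in 7 of the 38 genes (18.4%), against 3.01% of all genes. An annotated start can lie some bases away from the start used in these cells, so that a gene without a run in the window may still begin with one.

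The genes lie on 18 chromosomes, with 6 on chromosome 11 and 3 on the X, and their proteins range from 25 residues in Rpl41 to 419 in Rpl4. Most are rich in lysine and arginine, with a median of 23.8% of residues and 68.0% in Rpl41. The stalk proteins are the opposite, with 6.14% in Rplp1 and 10.4% in Rplp2 against 15.8% and 18.3% of aspartate and glutamate. Ribosomal protein mRNAs have left many processed copies in the genome, and these copies share sequence with the reads. In 21 of the 49 genes with a window to search, every 30-base window of the counted coding sequence occurred at another place in mm10, and the median over the genes was 96.2%. Rpl8 (12.3%), Rpl10l (38.5%), Rpl4 (41.3%) and Rpl3l (0) were the genes under 50%. Across 49 genes, this share had a Spearman rho of -0.09 with the footprint change and 0.03 with the mRNA change between genotypes, as a description over genes that share libraries.

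Depth ran from 20576796 to 23136595 reads in 5 of the 6 mRNA libraries, while the mRNA library of WT clone 28 held 6617457. The footprint libraries held 3477723 to 10883086 reads. Among the 50 genes, the lowest count was 16 reads in an mRNA library and 4 in a footprint library, both for Rpl3l. Of the markers of the pro-B stage, 6 were above 10 normalized counts in all mRNA libraries, among them the IL-3 receptor chain gene Csf2rb (21027 to 64432), while Ebf1, Pax5, Vpreb1 and Igll1, which define the B lineage, were between 0 and 2.69, at or near 0. Markers of T cells summed to at most 18.8 and those of myeloid cells to at most 40.3 normalized counts. Erythroid markers summed to 12.9 to 31.0 in R98S clones and to 33.0 to 217.5 in WT clones, with clone 28 the highest.

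Together, the 50 genes took up 5.38, 5.01 and 4.91% of all mRNA counts in R98S clones 11, 13 and 35 and 5.8, 4.78 and 4.29% in WT clones 28, 29 and 36. The WT clones held both the highest and the lowest value. In the footprint libraries the share was 2.55, 2.49 and 2.46% in R98S clones and 2.11, 2.08 and 2.48% in WT clones, so that the R98S clones were close to each other and WT clone 36 reached their level. The share among footprints was lower than among mRNA reads in every clone, but the 2 shares are not on like terms. Footprint counts covered 10080 genes and mRNA counts 41255. Footprints were counted on coding sequence only, which leaves out the UTRs that mRNA reads cover. In the median gene, 96.2% of the coding windows searched also occurred elsewhere in the genome, and only alignments of mapping quality 10 or more were kept. The part of each in the lower share was not tested.

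Levels per length differed widely between the genes (the scatter of mRNA and footprint levels). In WT clones, mRNA was highest for Rplp1, at 82729 ± 29224 normalized counts per kb of exon (SD, n = 3), followed by Rpl4 at 56401 ± 931 and Rpl32 at 43242 ± 4719.7. The 3 clones gave 113394, 79591 and 55200.5 for Rplp1 and 57416, 55588 and 56197 for Rpl4, so that the first place of Rplp1 does not hold in WT clone 36. Lowest were Rpl18 at 209 ± 61.8, Rpl10l at 38.9 ± 16.4 and Rpl3l at 20.0 ± 6.99. Rpl18 is a constant part of the ribosome, and its annotated exons add up to 3413 bases, a length that enters its level per kb. Rpl18 mRNA was also low before division by length, at 713 ± 211 normalized counts in WT clones (SD, n = 3). The median of the WT means over the large subunit genes was 14962 normalized counts. The reason for the low count of Rpl18 was not tested.

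Footprints per counted codon in WT clones were highest for Rpl8, which reaches the other subunit in an intersubunit bridge, at 62.4 ± 10.3 normalized counts (SD, n = 3), for Rpl32 at 54.9 ± 10.8 and for the stalk protein gene Rplp2 at 43.1 ± 5.12. These values overlapped between neighbours in the order: Rpl8 had 67.7, 50.5 and 69.0 and Rpl32 57.0, 43.2 and 64.4 in clones 28, 29 and 36. Lowest were Rpl22l1 at 1.63 ± 0.249, Rpl10l at 1.38 ± 0.531 and Rpl3l at 0.0393 ± 0.0016. Rpl41, whose protein has 25 residues, was left out of this order, as only 5 of its codons were counted. The share of repeated windows was 12.3% in Rpl8, against a median of 96.2%, and its part in this order was not tested.

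Ratios of footprints per codon to mRNA per kb set the footprint level of each gene against its mRNA level. On the log2 scale and relative to the median gene, Rplp0, the base of the stalk, stood at -2.24 ± 0.04 (SD, n = 3 WT clones), the lowest mean ratio of the 49 genes, although Rpl22l1 was lower in WT clone 28. Rpl22l1 stood at -1.82 ± 0.65, Rplp1 at -1.63 ± 0.28 and Rpl3, which lies near the peptidyl transferase centre, at -1.39 ± 0.33. The highest mean ratios were those of Rpl10l at 5.20 ± 0.56, Rpl18 at 3.00 ± 0.25 and Rpl24 at 2.42 ± 0.80, all with low mRNA per kb. Rplp2 was also above the median gene, at 1.57 ± 0.54. The stalk genes thus lay on both sides, with Rplp2 above the median gene and Rplp0 and Rplp1 below it in all 3 WT clones. The ratio has no absolute scale, and the genes' annotated exon lengths enter it. Across the 49 genes the share of repeated windows had a Spearman rho of -0.01 with the ratio, as a description over genes that share libraries. How many footprints or mRNA reads of each gene were lost to the mapping quality limit of 10 was not tested. A low ratio is thus not by itself a low number of ribosomes per mRNA.

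**Figure D1:**
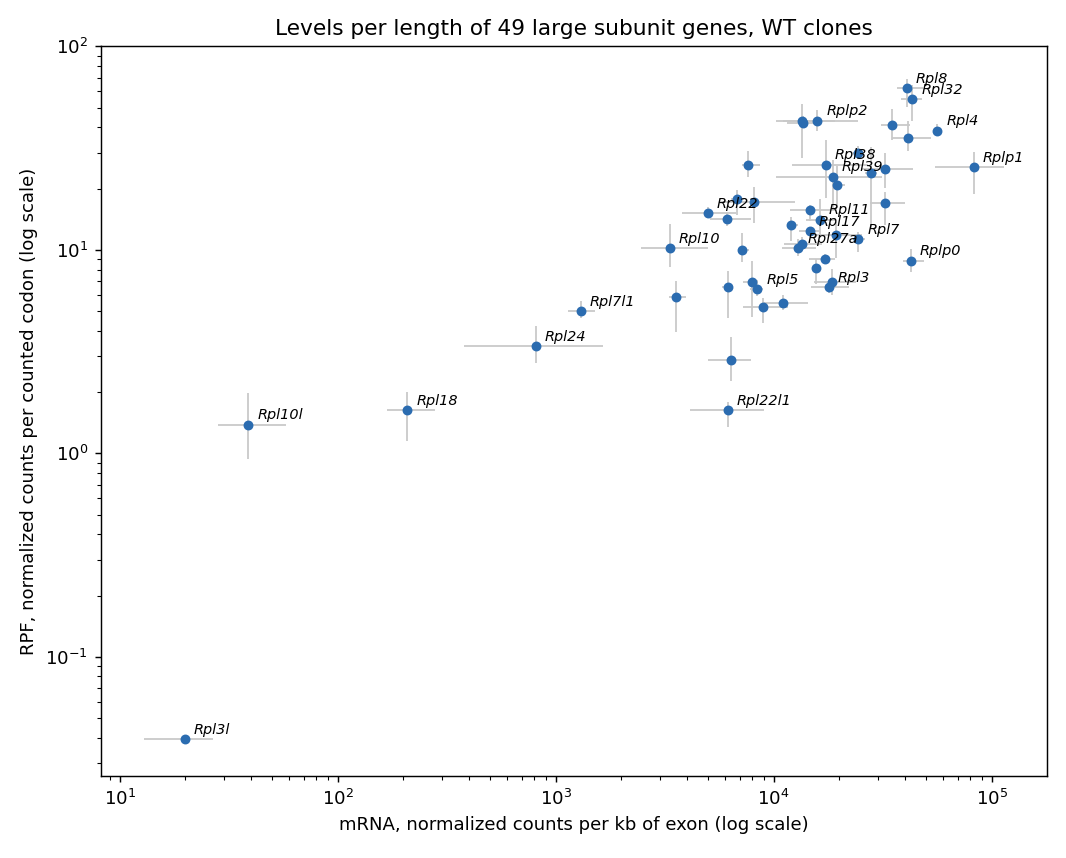
Mean levels in the 3 WT clones of 49 large subunit genes, with mRNA in normalized counts per kb of exon on the horizontal axis and footprints in normalized counts per counted codon on the vertical axis, both logarithmic; each point is a gene, and grey lines run from the lowest to the highest clone. Most genes lie in one cloud at the upper right, with Rpl10l, Rpl3l, Rpl18, Rpl24 and Rpl7l1 at lower mRNA levels and Rplp0 and Rpl22l1 below the cloud.

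Rpl10, the gene replaced in this model, lies at chrX:74270812-74273135, plus strand, with 6 exons in the transcript used. The mouse protein has arginine at the residue that the mutation changes to serine. Gene counts do not separate the knocked-down mouse mRNA from reads of the human transgene that align to it, so the values are for both together. Rpl10 mRNA amounted to 2905, 1449 and 2355 normalized counts in the R98S clones (11, 13 and 35), against 4501, 2345 and 2230.2 in WT clones 28, 29 and 36. Footprints on Rpl10 were at 2594, 1253 and 1612 in the R98S clones, against 2605, 1597 and 1732 in WT clones. The genotypes overlapped in both assays, and R98S clone 13 was the lowest of the 6 clones in both. The log2 difference, R98S minus WT, was -0.42 for mRNA (p = 0.6, two-sided exact permutation test, n = 3 and 3) and -0.15 for footprints (p = 0.7, same exact test), where the smallest p this design allows is 0.1. For footprints the sign turned when R98S clone 13 (0.08) or WT clone 28 (0.06) was left out.

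Rpl10l is an intronless autosomal copy of Rpl10 known from testis. Its coding sequence had the length of that of Rpl10, with 544 of 642 bases (84.7%) identical, and no exact 30-base window in common. Rpl10l mRNA was at 55.6, 26.2 and 26.7 normalized counts in the R98S clones, against 59.1, 28.9 and 31.3 in WT clones, while footprints were at 688, 252 and 306 in the R98S clones, against 242, 181 and 382 in WT clones. Footprint values thus exceeded mRNA values in all 6 clones, on scales that were normalized separately. The log2 of footprints over mRNA was 3.61, 3.22 and 3.47 in R98S clones and 2.01, 2.61 and 3.57 in WT clones, against -5.31 to 0.71 over the same clones for the other 49 genes. Whether footprints of the human transgene were placed on Rpl10l was not tested.

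Among the other paralog pairs, the ubiquitous member had the higher mRNA count. Rpl3l, a muscle form of Rpl3, was at 20.6 to 54.1 normalized counts of mRNA, and Rpl3 at 19787 to 29942. Rpl22l1, which can take the place of the RNA-binding protein Rpl22, reached 3468 ± 1419 normalized counts of mRNA in WT clones (SD, n = 3) and Rpl22 10313 ± 3208. Per kb of exon, however, the mRNA level of Rpl22l1 (6181 ± 2529.9) was above that of Rpl22 (4994 ± 1553) within each of the 3 WT clones, while footprints per codon were 1.63 ± 0.249 and 15.2 ± 0.989. Rpl7l1, a nucleolar relative of Rpl7, had 1305 ± 194 against 24447 ± 1603 normalized counts of mRNA per kb. Rpl39l, a testis copy of Rpl39 held only by the mRNA table, was at 0 to 0.825 normalized counts. No paralog passed the test between genotypes in either assay.

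Between genotypes, the mRNA levels of the 50 genes moved little and in both directions. All 50 were tested with limma across the 11344 genes with a mean of at least 10 normalized counts, with the adjusted p-value required to be under 0.1. None passed, where 787 of all genes (6.94%) did, 344 of them (3.03%) higher and 443 (3.91%) lower. By unadjusted p under 0.05 there were 6 (12%, against 17.9% of all genes), and both edgeR and DESeq2 on recovered reads also called none. The median log2 change of the 50 genes was 0.02, against 0.01 over all genes tested, and 26 (52.0%) were higher and 24 lower in R98S clones, where 51.4% of all genes were higher. The mRNA difference exceeded 0.5 in size for 1 gene, Rpl24, and the footprint difference for 7. All 3 R98S values lay above all 3 WT values in 8 genes (16.0%, against 11.9% of all genes) and below them in 1, Rpl36 (2.00%, against 11.6%).

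**Figure D2:**
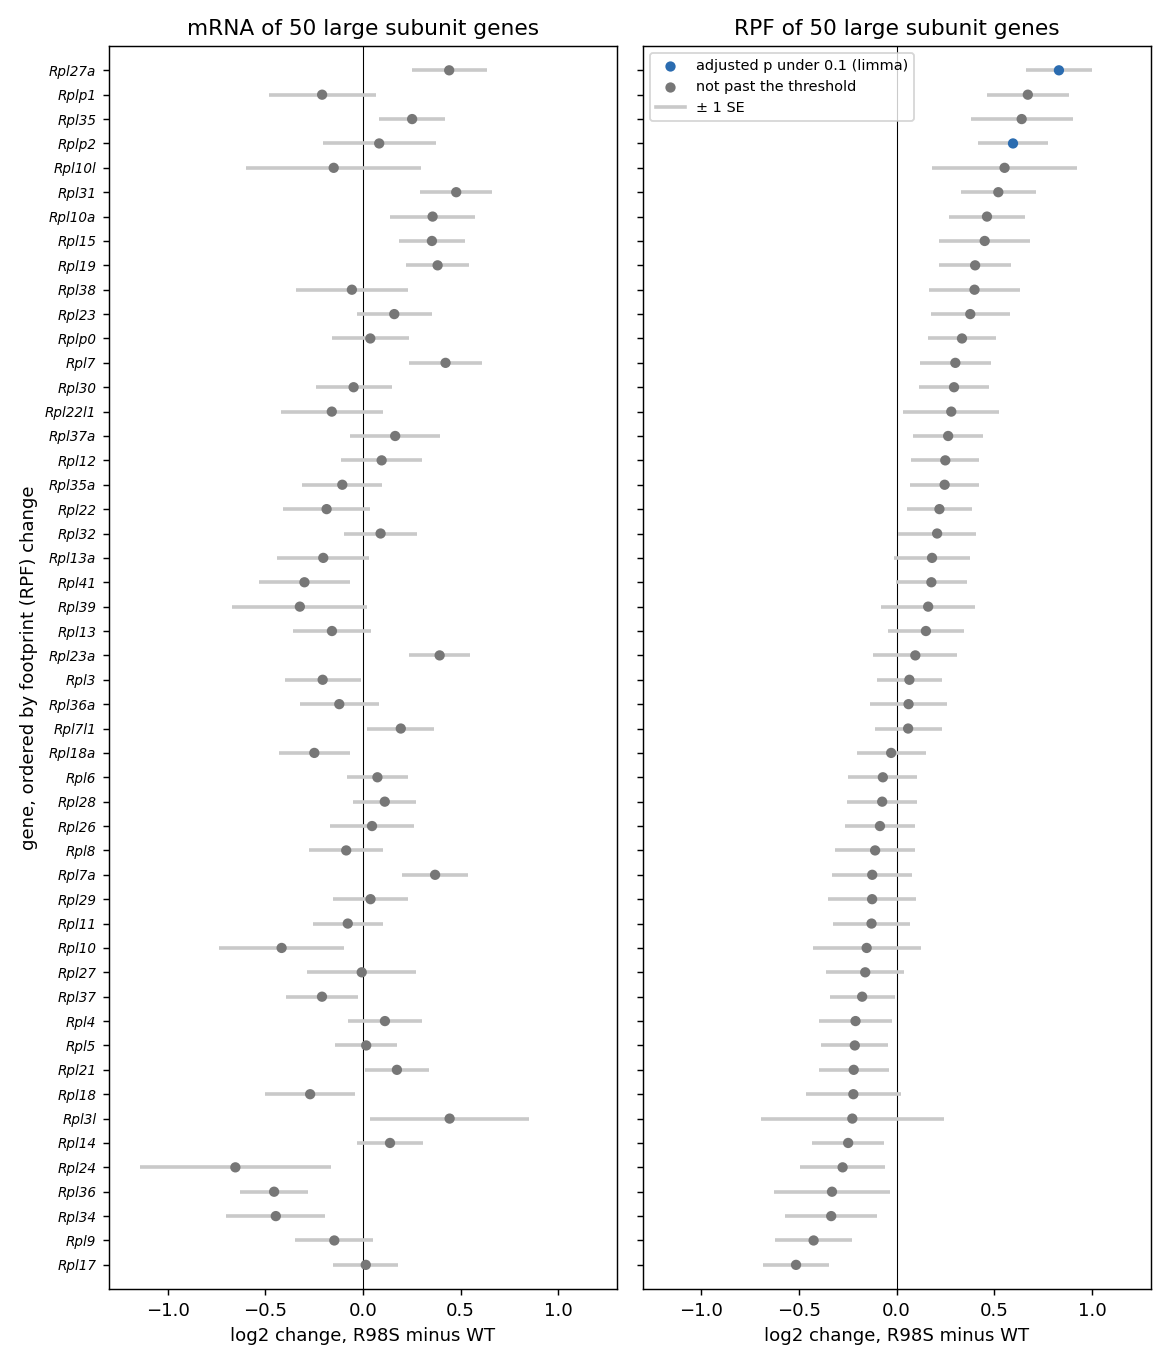
Log2 change between R98S and WT clones of each of the 50 large subunit genes for mRNA (left) and footprints (right), with 1 SE on either side (limma, n = 3 and 3 clones); genes are in the order of their footprint change, and blue marks an adjusted p under 0.1. Only Rpl27a and Rplp2 are blue, both for footprints, and the mRNA changes do not follow the footprint order closely.

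The largest positive mRNA differences were those of Rpl31, Rpl3l and Rpl27a. Rpl31, at the rim of the tunnel exit, was at 17916, 15190.2 and 12402 normalized counts in the R98S clones (11, 13 and 35), against 10505, 11572 and 10277 in WT clones 28, 29 and 36. The groups did not overlap, but the log2 difference of 0.48 (SE 0.18) did not pass (limma, adjusted p = 0.203). Rpl3l differed by 0.44 at low counts, with overlapping groups, and by 0.17 without WT clone 29 and 0.68 without WT clone 28. Rpl27a mRNA was at 22183, 17948 and 20585 in the R98S clones, against 18145, 14256 and 12639 in WT clones, a difference of 0.44 (SE 0.19; limma, adjusted p = 0.266), and WT clone 28 lay within the R98S range. The other genes with R98S mRNA above WT in all clones were Rpl7, Rpl23a, Rpl19, Rpl7a, Rpl35, Rpl4 and Rpl6, with log2 differences from 0.07 to 0.42.

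On the lower side, the largest differences were those of Rpl24, Rpl36 and Rpl34. For Rpl24, a bridge protein, mRNA was at 283, 246 and 289.7 normalized counts in the R98S clones, against 1119.8, 271 and 259 in WT clones. A single value, that of WT clone 28, set the log2 difference of -0.65, and without that clone it was 0.04. Rpl36 was at 9385, 6907 and 7393 in the R98S clones, against 11464, 10674 and 10075 in WT clones, without overlap, and its difference of -0.45 did not pass (limma, adjusted p = 0.204). Rpl34 differed by -0.45 with overlapping groups, and by -0.17 without WT clone 28.

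Footprints on Rpl27a were higher in R98S clones. The gene lies at chr7:109519147-109522367, plus strand, and the protein is a core component of the subunit. Every 30-base window of its counted coding sequence (100%) also occurred elsewhere in the genome, at 31 other loci. Only alignments of mapping quality 10 or more were kept, and how many of its footprints were lost or placed on copies was not tested. Its footprints were at 2538, 2124 and 2272 normalized counts in the R98S clones (11, 13 and 35), against 1269.6, 1188 and 1440.3 in WT clones 28, 29 and 36. Every R98S clone was above every WT clone, and the gap between the groups was wider than the range within either. Footprints rose 1.78-fold, a log2 change of 0.83 (SE 0.17; limma over 9580 genes, adjusted p = 0.0243). The call was lost without R98S clone 11 (log2 change 0.76, limma, adjusted p = 0.112) and held when any other clone was left out.

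Rplp2, which forms the flexible stalk with Rplp1 and recruits elongation factors, was the other gene called. The gene lies at chr7:141447370-141451585, plus strand. Its footprints were at 6887, 5896 and 5758 normalized counts in the R98S clones, against 3997, 3664 and 4621 in WT clones, again without overlap. They rose 1.51-fold, a log2 change of 0.60 (SE 0.18; limma, adjusted p = 0.0958), close to the threshold of 0.1. The call was lost when any of the 6 clones was left out (limma, adjusted p from 0.107 to 0.311), while the log2 change stayed between 0.52 and 0.69.

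With these, 2 of the 50 genes (4.00%) were called higher and none lower for footprints, against 743 of 9580 genes (7.76%) over all, 300 of them (3.13%) higher and 443 (4.62%) lower. Unadjusted p was under 0.05 for 7 (14%, against 20.3% of all genes). Their median log2 footprint change was 0.08, against 0.01 over all genes tested, with 28 (56.0%) higher and 22 lower, where 51.2% of all genes were higher. All R98S values lay above all WT values in 8 genes (16.0%, against 12.5% of all genes) and below them in 3 (6%, against 12.8%).

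The rest of the stalk was measured beside Rplp2. Rplp1 footprints were at 3857, 4108 and 3317 normalized counts in the R98S clones (11, 13 and 35), against 2857, 1777 and 2558 in WT clones 28, 29 and 36, without overlap, and the log2 difference of 0.67 (SE 0.21) fell just short of the threshold (limma, adjusted p = 0.104). Rplp0, which anchors the Rplp1 and Rplp2 dimers to the ribosome, was at 3412, 3451 and 3014 in the R98S clones, against 2302, 2565 and 2994 in WT clones, again with each R98S clone above each WT clone and a difference of 0.33 (limma, adjusted p = 0.316). Rpl12, next to the stalk base, differed by 0.25 with overlapping groups. All 4 stalk genes thus had positive footprint differences, of which only that of Rplp2 passed. Their mRNA differences were 0.08 for Rplp2, -0.21 for Rplp1, 0.04 for Rplp0 and 0.10 for Rpl12, none of which passed.

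Among the footprint differences above 0.5 on the log2 scale, those of Rpl35, Rpl10l and Rpl31 did not pass either. Rpl35, at the tunnel exit, was at 1123, 1354 and 821 normalized counts in the R98S clones, against 759, 480.0 and 903 in WT clones, with WT clone 36 above R98S clone 35 (difference 0.64, or 0.38 without WT clone 29, limma, adjusted p = 0.196 with all clones). Rpl31 was at 1684, 1530.4 and 1293 in the R98S clones, against 913, 970.3 and 1272 in WT clones, without overlap but with R98S clone 35 only slightly above WT clone 36 (difference 0.52, limma, adjusted p = 0.153). It was thus higher in every R98S clone for mRNA and for footprints alike. Rpl10a of the mobile stalk on the other flank, Rpl19 and Rpl7 also had non-overlapping footprints, with differences of 0.46, 0.40 and 0.30.

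**Figure D3:**
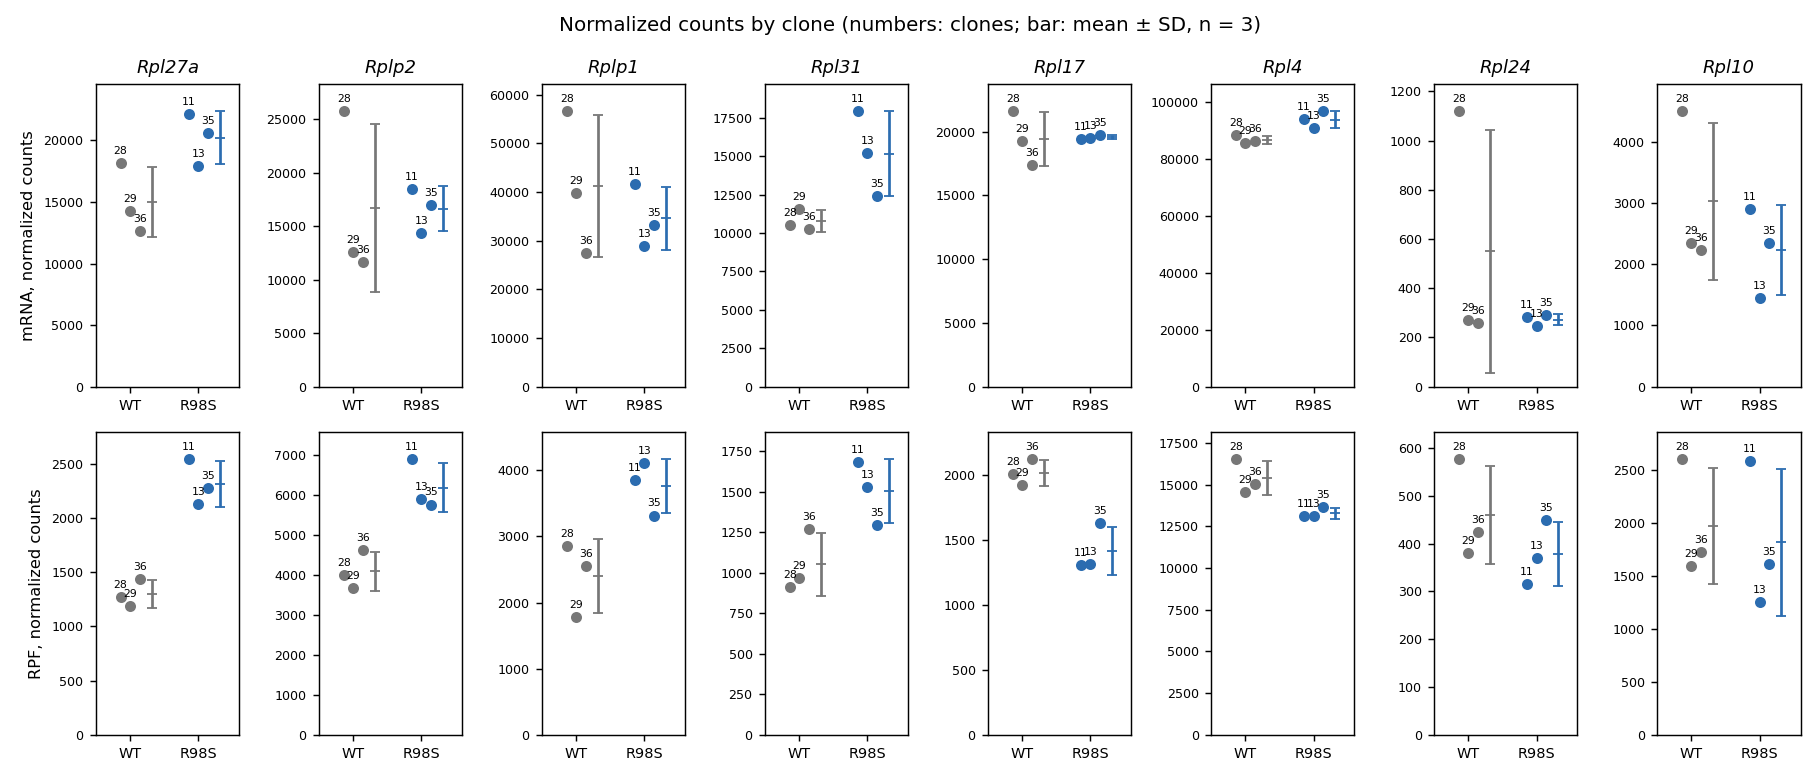
Normalized counts of 8 large subunit genes in each clone, for mRNA (top row) and footprints (bottom row); grey points are WT clones and blue points R98S clones, labelled with their numbers, and bars give the mean and SD (n = 3). Footprints on Rpl27a, Rplp2, Rplp1 and Rpl31 are higher in each R98S clone than in any WT clone and those on Rpl17 and Rpl4 lower, and the mRNA value of WT clone 28 stands apart for Rpl24, Rplp1, Rplp2 and Rpl10.

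The most negative footprint differences were those of Rpl17, Rpl9 and Rpl34, and none passed. Rpl17, which lines the exit tunnel together with Rpl4, was at 1306, 1320.0 and 1632 normalized counts in the R98S clones, against 2009, 1925 and 2123 in WT clones. The groups did not overlap, and the log2 difference of -0.51 (SE 0.17) did not pass (limma, adjusted p = 0.121). Its mRNA was nearly the same in both genotypes, with 19570.2 ± 167 and 19443 ± 2104 normalized counts (SD, n = 3 and 3). Rpl9 was at 1584, 1589.9 and 2363 in the R98S clones, against 2421, 2263 and 2628 in WT clones, where R98S clone 35 lay within the WT range (difference -0.42, limma, adjusted p = 0.26). Rpl34 differed by -0.33 with overlapping groups, a value that ran from -0.61 without WT clone 29 to -0.18 without WT clone 36.

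Rpl4 combined opposite differences. Its mRNA was at 93891, 90862 and 96749.9 normalized counts in the R98S clones, against 88306, 85495 and 86431 in WT clones, all R98S clones above all WT clones, while its footprints were at 13102, 13102 and 13649 in the R98S clones, against 16517, 14583 and 15057 in WT clones, all below. The log2 differences were small, 0.11 and -0.21, and neither passed (limma, adjusted p = 0.805 and 0.564). Rpl4 was the most abundant of the 50 genes in WT clones, by mean mRNA and mean footprint counts not divided by length, although Rpl8 had more footprints in WT clone 36. Rpl37 was the third gene with all R98S footprints below all WT footprints, with a difference of -0.18.

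None of the remaining genes chosen by role passed the test. Rpl5 and Rpl11, which form a particle with the smallest RNA of the subunit and can bind Mdm2 outside the ribosome, had footprint differences of -0.21 and -0.13 and mRNA differences of 0.02 and -0.08 on the log2 scale. Of the proteins near the peptidyl transferase centre and the tunnel, Rpl3 and Rpl39 differed by 0.07 and 0.16 for footprints. The bridge proteins Rpl8, Rpl19, Rpl24, Rpl30 and Rpl41 had footprint differences of -0.11, 0.40, -0.28, 0.29 and 0.18, so that they did not share a direction. Rpl38, a protein linked to the translation of some Hox mRNAs in the embryo, differed by 0.40, with R98S values of 1599, 1825 and 1597 and WT values of 1315, 895 and 1724 normalized counts that overlapped. Rpl22 and Rpl22l1 differed by 0.22 and 0.28.

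The mRNA values of WT clone 28 stood apart from those of the other clones. Its mRNA library, the shallowest, held the highest value of all 6 clones for 30 of the 50 genes, and in 14 of them it was more than 1.5 times the mean of the other 5 libraries. The ratio was 4.15 for Rpl24 (1119.8 normalized counts from 417 reads, against 246 to 289.7), 2.42 for Rpl39, 1.99 for Rpl10 and 1.9 for Rpl38. The footprint library of the same clone was highest for 10 genes, and for Rpl39 it was below the others, at 0.608 times their mean. No share over all genes is given for these counts, so whether they are particular to the 50 genes is not shown. The highest erythroid marker values, 169 for Hba-a1 and 48.3 for Hbb-bs against at most 36.8 and 0.794 elsewhere, were in the same mRNA library, and the part of depth or of such RNA in these values was not tested. Without clone 28, 2 of the 50 genes passed for mRNA, Rpl10a and Rpl27a, both higher in R98S clones, a share of 4% where 9.82% of all genes passed in the same fit (limma, log2 change of 0.59 and adjusted p = 0.0825 for Rpl27a), and the median mRNA change was 0.12.

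Translation efficiency (TE), here the log2 of footprints over mRNA in one clone, varied more between the WT clones than between the R98S clones. The median TE of the 50 genes was -2.83, -2.56 and -2.68 in R98S clones 11, 13 and 35 and -3.08, -3.0 and -2.44 in WT clones 28, 29 and 36. The R98S clones thus lay between the WT clones. Over all genes tested the median TE ran from -1.67 to -1.62. Division by size factors brings the typical gene to a similar level in each library, so a narrow range there is largely set by the normalization. It does not show that the spread between clones is particular to the 50 genes. WT clone 36 had the highest TE of the 6 clones for 27 of the 50 genes, and WT clone 28 had the lowest for 26. Accordingly, the mean TE of the R98S clones was above that of WT clone 28 for 35 of the 50 genes (median difference 0.37) and above that of WT clone 29 for 36 (0.23), but above that of WT clone 36 for only 6 (-0.28).

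**Figure D4:**
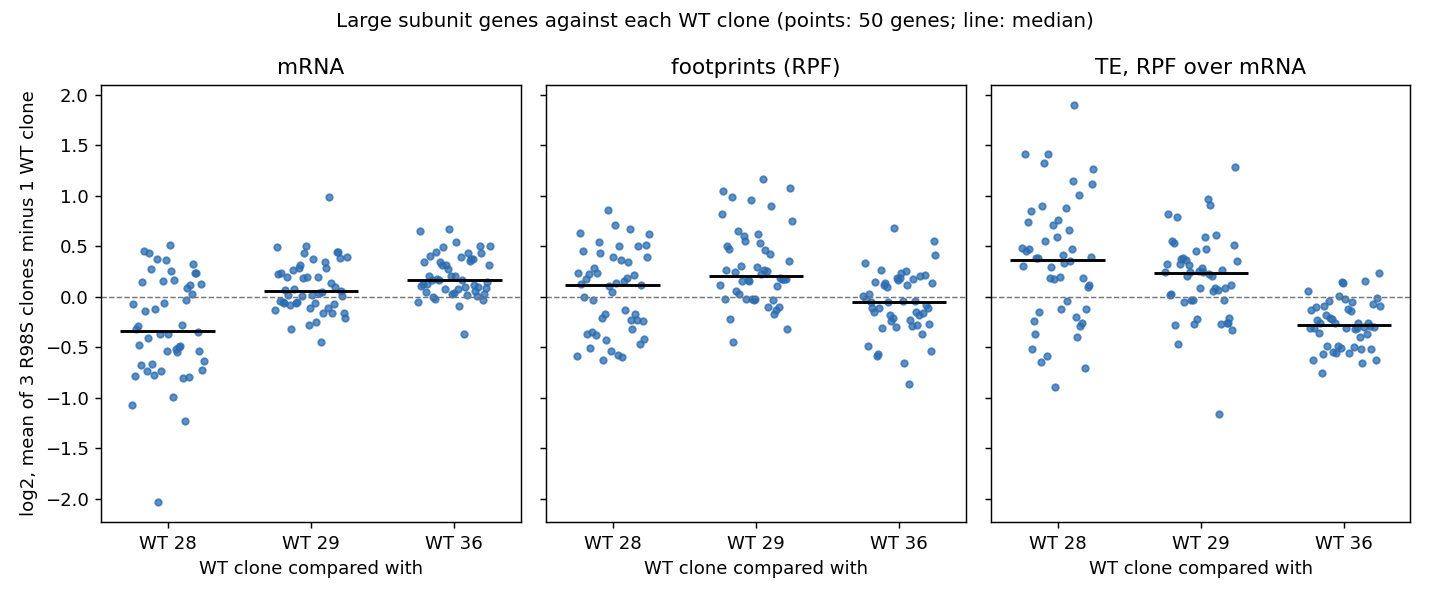
Log2 difference between the mean of the 3 R98S clones and each WT clone for the 50 large subunit genes (points), with the median as a black line, for mRNA, footprints and TE. The TE medians are 0.37, 0.23 and -0.28 against WT clones 28, 29 and 36, and the mRNA medians -0.33, 0.05 and 0.17, so that the sign depends on the WT clone.

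In the test of TE, 49 of the 50 genes had at least 10 normalized counts in all 12 libraries, Rpl3l being the exception, and none passed (limma over 9043 genes). Over all genes only 2 (0.0221%) passed. At an unadjusted p under 0.05 there were 3 genes, Rplp1, Rpl7a and Rpl17 (6.12%, against 7.85% of all genes). Fits by edgeR and DESeq2 with an interaction of assay and genotype called none of the 49, but they left out the pairing by clone. At an unadjusted p under 0.05, edgeR held 280 and DESeq2 317 of all genes, against 710 for the paired limma test, so they are a weaker check. The median log2 TE change was 0.11, against -0.0014 over all genes tested, with 32 genes (65.3%) higher and 17 lower, where 49.8% of all genes were higher. Leaving out WT clone 28 brought the median to -0.03 and leaving out WT clone 36 brought it to 0.34. A limma fit without the pairing of footprint and mRNA libraries by clone also called 0 of the 49 genes.

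The largest TE differences were those of Rplp1, Rpl10l and Rplp2, and the most negative those of Rpl17, Rpl7a and Rpl21. TE of Rplp1 was -3.43, -2.82 and -3.32 in R98S clones and -4.31, -4.48 and -3.43 in WT clones, and the lowest R98S clone lay just below WT clone 36 (difference 0.88, SE 0.32; limma, adjusted p = 0.629). Rplp2 differed by 0.51 and Rpl10l by 0.70, both with overlapping groups. Both turned on the WT clones, since Rplp2 differed by 0.14 without WT clone 28 and 0.81 without WT clone 36, and Rpl10l by 0.34 and 1.12. TE of Rpl17 was -3.90, -3.88 and -3.60 in R98S clones and -3.43, -3.33 and -3.04 in WT clones, and that of Rpl7a was -2.37, -2.32 and -2.25 and -1.61, -2.05 and -1.79. For both genes all R98S clones were below all WT clones, with differences of -0.53 and -0.49 (limma, adjusted p = 0.629 for both). Rpl21 differed by -0.39. The TE difference exceeded 0.5 in size for 4 of the genes. Non-overlapping TE was also found for Rpl3 and Rpl41 above, and for Rpl4 and Rpl7l1 below, which makes 2 genes above (4.08%, against 7.45% of all genes) and 4 below (8.16%, against 7.36%).

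The 15 genes with a pyrimidine run in the window around an annotated start had a median log2 footprint difference of 0.25, and 10 of them were higher in R98S clones. Of those printed above, Rpl27a, Rpl35, Rplp2, Rpl15, Rpl22l1 and Rpl35a had positive differences (0.25 to 0.83) and Rpl14 and Rpl34 negative ones (-0.25 and -0.33). The other genes with a run and a negative difference were Rpl18, Rpl28 and Rpl7a. For the 23 genes without a run the median was 0.06, with 12 higher. The TE medians were 0.35 and 0.10 over 15 and 22 genes, and the mRNA medians 0.08 and 0.02. The ranges overlapped widely, from -0.33 to 0.83 and from -0.42 to 0.55 for footprints, and the difference was not tested.

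Related lists give the scale for these values. The 32 small subunit genes had median log2 changes of -0.0047 for mRNA, 0.03 for footprints and 0.08 for TE, with 1 gene, Rps13, called higher for footprints. The corresponding medians of the mitochondrial large subunit were 0.08, 0.20 and 0.11, and 3 of its 47 genes were called higher (Mrpl38, Mrpl46 and Mrpl54) and 1 lower (Mrpl32) for footprints. Another 17 TOP mRNAs, mostly of translation factors, had medians of 0.02, -0.19 and -0.26, with 13 of 17 lower for footprints and 1, Hnrnpa1, called lower. The shares called for footprints were 3.1% (small subunit), 8.5% (mitochondrial) and 5.9% (TOP), against 7.76% of all genes. Outside the name rule, Rpl36al differed by 0.27 for footprints and did not pass.

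The factors that escort large subunit proteins or load them in the cytoplasm were measured as well. Of 9 measured, 1 was called higher and 1 lower for mRNA (22.2%, against 6.94% of all genes). For footprints, 1 was called higher (11.1%, against 7.76% of all genes). In so short a list, 1 gene makes up 11.1%. Bccip, a chaperone of the large subunit protein Rpl23, was at 1953, 1781 and 1899.9 normalized counts of mRNA in the R98S clones, against 1082, 657 and 814 in WT clones. It rose by 1.17 on the log2 scale for mRNA (SE 0.21; limma, adjusted p = 0.0143) and by 0.88 for footprints (limma, adjusted p = 0.0221). Nmd3, the export adaptor that leaves the subunit when Rpl10 is in place, was at 1724, 1377 and 2435 in the R98S clones, against 2924, 2988 and 3350.1 in WT clones. Its mRNA was lower in each R98S clone, with a log2 change of -0.78 (SE 0.22; limma, adjusted p = 0.0873). Aamp, the chaperone of Rpl10 itself, differed by 0.67 for mRNA and 0.47 for footprints and did not pass (limma, adjusted p = 0.133 and 0.154), although all R98S values were above all WT values in both. Such separation was found in 11.9% of all genes for mRNA and in 12.5% for footprints. None of the 9 passed for TE, and Rpl23, the partner of Bccip, differed by 0.16 for mRNA and 0.38 for footprints.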

How the data were processed

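Ribosome footprints and matching mRNA were sequenced from 3 R98S and 3 WT clones. Per the labels and the study's methods, the authors trimmed footprints with fastq-mcf, removed rRNA and tRNA reads with Bowtie2, aligned to mm10 and spliced transcripts with Tophat 2.0.11, and kept primary alignments of mapping quality 10 or more. Footprints were counted on coding sequence without the first 15 and last 5 codons, and 3 technical replicates were merged. The deposited signal values are gene counts divided by DESeq2 size factors, separately for each table. Divided by the value of 1 read, 100% of them came out whole, so reads were recovered for alternative tests. The main test was limma 3.58.1 (R 4.3.3) with a variance trend on log2(value + 1), a choice made because the values are normalized, with Benjamini-Hochberg adjustment over all genes tested and a threshold of 0.1. Fold changes are on that scale and understate those of low genes. TE was the difference of log2 values within a clone, because both libraries carry its number; their deviations from the genotype means correlated at 0.218 to 0.681. The study's own TE test (Babel) was not run here. On recovered reads, edgeR 4.0.16 called 805 genes for mRNA, 808 for footprints and 2 for TE, and DESeq2 1.42.0 called 1283, 1095 and 6. The tests were tried on simulated data with known changes. Gene models came from GENCODE vM21, and mRNA levels per kb used the union of exons. Rpl10 was compared by an exact permutation test. Clones are separate lines, and their footprint and mRNA libraries had no replicates of their own in the tables. Genes named were those of set roles, those called, the 3 largest and 3 smallest changes for each measure, and the 3 highest and lowest levels per length; Rpl31, Rpl10a, Rpl7, Rpl37 Rpl23, the other genes with non-overlapping groups and those whose start is printed were named after their values were seen. Some genes of the lists are not reported here. The members and lists were chosen with earlier results of these data known.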

Additional observations from a re-analysis of the deposited data

How the results depend on the processing

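Leaving out 1 clone at a time gave 0 to 2 of the 50 genes called for mRNA, 0 to 5 for footprints and 0 to 0 for TE. Over all genes the share called in these fits moved as well, from 2.78 to 9.82% for mRNA and from 2.39 to 12% for footprints, and both the 2 and the 5 genes came from the fit with the highest share. The median log2 change of the genes ranged from -0.11 to 0.12 for mRNA, -0.01 to 0.17 for footprints and -0.03 to 0.34 for TE. Each end lay within 1 SD between clones (0.20, 0.12 and 0.24) of the value with all clones. That SD comes from the same clones, and leaving out 1 of them can hardly move the median further. Lying within it is therefore no measure of stability. The Rpl10 difference ranged from -0.63 to -0.09 for mRNA and -0.44 to 0.082 for footprints, a range added after seeing the data. For footprints, 1 gene was called with no filter on low values (Rpl27a), 4 by DESeq2 (Rpl27a, Rplp2, Rplp1 and, lower, Rpl17) and 1 with libraries centred on genes outside the cytosolic ribosome (Rpl27a); 3 were called with TMM factors and 2 with a pseudocount of 5 and by edgeR. Rpl27a was among the genes called for footprints in each setting except without R98S clone 11. For mRNA and TE, each setting other than leaving out WT clone 28 called 0 genes, including the addition of pseudogene entries, which held at most 8.29% of a gene's mRNA value (Rpl3). TE without the replicate block, that is, with the pairing by clone ignored, called 0. The mRNA difference of Rpl24 ranged from -1.02 to 0.039, the latter without WT clone 28. The shallow mRNA library of WT clone 28 limits the precision of low genes such as Rpl10l, with 22 reads there. The causes were not tested.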
